A study of Mus musculus with 8 samples.

Results

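The circadian clock genes described here are Per1, Per2, Per3, Cry1, Cry2, Arntl, Clock, Nr1d1, Nr1d2 and Dbp, chosen by name as the core loop of the mammalian clock together with one of its outputs. They are 10 of the 24460 genes counted, and all 10 passed the filter on low counts that left 14296 genes for testing. The libraries came from wild type mouse embryonic fibroblasts (MEFs), grown subconfluent in serum-containing medium and exposed to RHPS4, a G-quadruplex ligand, at 0 µM (3 libraries), 2 µM (3 libraries) or 10 µM (2 libraries). Total RNA was depleted of ribosomal RNA and sequenced as stranded libraries. The labels do not say whether libraries of one dose came from separate cultures, so that the p-values measure the spread between these libraries only. They give neither the hour of collection nor any step that would set the clocks of the cells to one phase, and of the exposure times that the treatment description names, they do not give the one used for each library.

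The clock of mammalian cells is a loop of transcription factors. Clock and Arntl (also called Bmal1) bind E-boxes and switch on the Per and Cry genes, whose proteins return to the nucleus and shut Clock and Arntl off, and they also switch on Nr1d1, Nr1d2 and Dbp. The proteins of Nr1d1 and Nr1d2 (REV-ERBα and REV-ERBβ) repress Arntl through ROR elements, and Dbp activates genes that carry D-boxes, Per3 being a well known one. In a running clock Dbp, Nr1d1 and the Per genes therefore peak at another time than Arntl. Fibroblasts in culture keep such clocks, but without a synchronising stimulus the cells of a dish drift apart, and bulk RNA gives the average over them.

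Libraries held 10455965 to 26688121 counts in total, and levels are given as CPM, counts scaled to a common library size with TMM. Before the TMM factor was applied, 3 counts were worth 0.287 to 0.112 CPM, while the members had from 77 to 6771 counts in a library. Such floors and all counting errors below cover counting error only, since PCR copies are not independent molecules. The first 0 µM library, the smallest, stood apart. It differed from the second and the third by a chi-square of 18.4 and 24.1 per degree of freedom, whereas these differed from each other by 3.62, and its shortest genes (the fifth of tested genes with up to 1928 bp of exon) lay a median 0.11 above the dose mean on the log2 scale and its longest (the fifth with at least 5672 bp) 0.083 below. Results that it moves are therefore also given without it. All 10 fibroblast markers were above 1 CPM in every library, at a sum of 14100 to 14500 CPM at 0 µM, 12800 to 13000 CPM at 2 µM and 12500 to 12800 CPM at 10 µM. The lists for other cell types summed to 3.11 to 5.28 CPM (epithelial), 15.9 to 24.5 CPM (macrophage, Cd14 included, at 7.62 to 16.8 CPM), 4.4 to 7.61 CPM (endothelial), 1.35 to 2.66 CPM (muscle) and 45 to 57.6 CPM (neural, mostly Map2, a microtubule protein), over the 8 libraries. Epcam was at 0.207 to 0.713 CPM, Myod1 at 0 to 0.244 CPM, Ptprc at 0.534 to 1.14 CPM and Cdh5 at 0.178 to 0.933 CPM. Pdgfrb and Cd14 were called lower at 10 µM than at 0 µM and Tubb3, a neuronal tubulin, higher, and the part of such shifts in the results below was not tested. In bulk RNA fewer cells of a type and less RNA per cell cannot be told apart.

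At 0 µM, Clock and Nr1d2 were the most abundant members per length of exon, at 27.4 ± 0.326 and 27.1 ± 2.18 CPM per kb (SD, n = 3), and their libraries overlapped. Nr1d1 followed at 8.08 ± 1.37 CPM per kb and Arntl at 6.68 ± 0.452, again with overlapping libraries. Cry1 (5.15 ± 0.282), Per3 (5.12 ± 0.921), Per1 (5.06 ± 1.37) and Dbp (5.04 ± 0.245 CPM per kb) formed a level that lay below Arntl in every library, and Per2 (3.12 ± 0.141) and Cry2 (2.68 ± 0.622) were lowest, below the libraries of Cry1, Per3, Per1 and Dbp and overlapping each other. At 10 µM (SD, n = 2) the order was Nr1d2 at 32.5 ± 3.63 CPM per kb, Clock at 25 ± 0.498, Dbp at 8.49 ± 1.17, Per3 at 7.52 ± 0.98, Arntl at 6.32 ± 0.355 and Nr1d1 at 5.66 ± 0.732, with the other members at 2.68 to 4.44 CPM per kb. Dbp thus stood in place 8 of the 10 at 0 µM and in place 3 at 10 µM. Its libraries overlapped those of Cry1, Per3 and Per1 at 0 µM, so that its place among them is not settled. At 10 µM its libraries and those of Per3 overlapped.

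**Figure D1:**
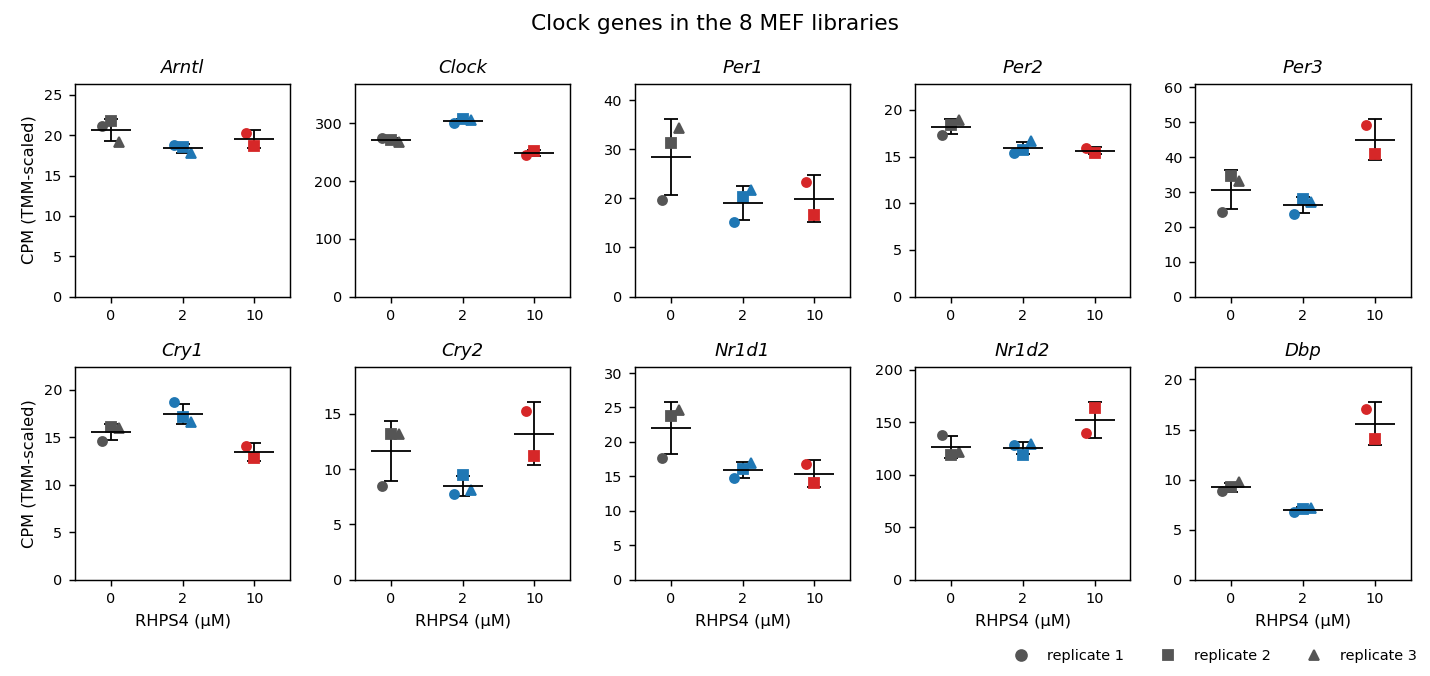
Level of each clock gene in CPM (TMM-scaled, y axis from 0) at 0, 2 and 10 µM RHPS4 (x axis); each symbol is 1 library, its shape the replicate number, with the mean as a line and the SD as bars. Dbp lies at 8.81 to 9.71 CPM at 0 µM, 6.77 to 7.18 CPM at 2 µM and 14.1 to 17.1 CPM at 10 µM, while Arntl stays between 17.8 and 21.7 CPM throughout.

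Arntl and Clock, the activators of the loop, did not pass the test at either dose. Arntl, at chr7:113207465-113314126 of GRCm38, was at 21.1, 21.7 and 19.1 CPM at 0 µM, at 18.8, 18.5 and 17.8 CPM at 2 µM and at 20.3 and 18.7 CPM at 10 µM. The 2 µM libraries lay just below the 0 µM ones, and the 10 µM libraries were spread across both. The log2 fold change was −0.17 (95% interval −0.361 to 0.0296) at 2 µM and −0.07 (−0.29 to 0.141) at 10 µM, so that a change of Arntl beyond 1.5-fold in either direction lay outside both intervals. Clock, on chromosome 5, had 275, 271 and 268 CPM at 0 µM, 301, 307 and 305 CPM at 2 µM and 245 and 252 CPM at 10 µM. No group overlapped another, since the libraries of one dose were within a few CPM of each other. Against 0 µM it differed by only 0.17 on the log2 scale (standard error 0.0605, adjusted p = 0.147) at 2 µM and by −0.13 (0.0678, adjusted p = 0.229) at 10 µM. Between 10 and 2 µM Clock differed by −0.30 (standard error 0.0681, adjusted p = 0.0101), which missed the threshold of 0.01 and was under the fold of 1.5.

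The Per genes encode the repressors of the loop, and they did not move together. Per1, at chr11:69095217-69109960, was at 19.7, 31.3 and 34.3 CPM at 0 µM, at 15.2, 20.3 and 21.7 CPM at 2 µM and at 23.3 and 16.6 CPM at 10 µM. Each group spanned a wide range, and all overlapped. Against 0 µM the log2 difference was −0.60 (standard error 0.199) with an adjusted p of 0.118 at 2 µM, and −0.53 (0.222) with an adjusted p of 0.135 at 10 µM. Without the first 0 µM library these were −0.77 (adjusted p = 0.0111) and −0.74 (adjusted p = 0.011), just short of the threshold. Per2, at chr1:91415982-91459324, was steadier, with 17.3, 18.4 and 18.9 CPM at 0 µM, 15.4, 15.7 and 16.7 CPM at 2 µM and 15.9 and 15.4 CPM at 10 µM. Both exposed groups lay below the untreated libraries, by a log2 difference of −0.20 (adjusted p = 0.221) and −0.23 (adjusted p = 0.144), which did not pass. Per3, at chr4:151003652-151044665, was the member of the family that was high at the higher dose. It had 24.3, 34.5 and 33.2 CPM at 0 µM, 23.6, 27.9 and 27.1 CPM at 2 µM and 49.2 and 40.9 CPM at 10 µM. Both 10 µM libraries lay above every other library. Per3 rose 1.72-fold between 2 and 10 µM (log2 fold change 0.78, standard error 0.143, adjusted p = 0.0031), and its difference of 0.54 between 10 and 0 µM (standard error 0.141, adjusted p = 0.0269) did not pass, and without the first 0 µM library it was 0.39 (adjusted p = 0.0272). The call between 10 and 2 µM was lost without any one of the 2 µM libraries (log2 0.71 to 0.83, adjusted p = 0.0104 to 0.0129) and without the first 10 µM library (log2 0.60, adjusted p = 0.0398). Part of Per3 lies over Camta1 on the same strand, and how the counting assigned fragments there is not given in the sources used here.

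Cry1 and Cry2, whose proteins repress Clock and Arntl most strongly, did not pass in any comparison with all 8 libraries. Cry1, on chromosome 10, was at 14.6, 16.1 and 16 CPM at 0 µM, at 18.7, 17.1 and 16.6 CPM at 2 µM and at 14.1 and 12.8 CPM at 10 µM. The groups did not overlap, with 2 µM highest and 10 µM lowest, and the log2 difference of −0.37 between 10 and 2 µM (standard error 0.107) had an adjusted p of 0.0285. Cry2, on chromosome 2, was at 8.49, 13.2 and 13.2 CPM at 0 µM, at 7.74, 9.44 and 8.13 CPM at 2 µM and at 15.2 and 11.2 CPM at 10 µM. Its first untreated library lay among the 2 µM libraries and the other two among the 10 µM libraries. The log2 difference of 0.65 between 10 and 2 µM (standard error 0.194, adjusted p = 0.0323) did not pass, and without the first 0 µM library it did, at 0.62 (adjusted p = 0.00812). Against 0 µM, Cry2 differed by −0.50 (adjusted p = 0.133) at 2 µM and 0.15 (adjusted p = 0.632) at 10 µM, which without that library became −0.64 (adjusted p = 0.0159) and −0.015 (adjusted p = 0.957).

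Of the REV-ERB genes, Nr1d1 was lower in all exposed libraries. Nr1d1, at chr11:98767932-98775333, had 17.7, 23.7 and 24.6 CPM at 0 µM, 14.7, 16 and 17 CPM at 2 µM and 16.8 and 14 CPM at 10 µM. The 5 exposed libraries all lay below the lowest untreated one, and that untreated library was much nearer to them than to the other two. At 2 µM it differed by −0.48 (standard error 0.129, adjusted p = 0.0604) and at 10 µM by −0.53 (0.145, adjusted p = 0.0328), neither of which passed. Without the first 0 µM library both passed, at −0.59 (adjusted p = 0.00732) and −0.67 (adjusted p = 0.00267). Nr1d1 overlaps Thra, a thyroid hormone receptor gene on the other strand. The library kit keeps the strand, but whether the counting used it is not given in the sources used here, and Thra itself differed by −0.37 (adjusted p = 0.0221) at 2 µM and −0.14 (adjusted p = 0.267) at 10 µM. Nr1d2, at chr14:18204054-18239127, was at 138, 119 and 122 CPM at 0 µM, at 128, 119 and 129 CPM at 2 µM and at 140 and 164 CPM at 10 µM. The 10 µM libraries were highest, though one of them only just, and the log2 difference of 0.26 from 0 µM (standard error 0.0933, adjusted p = 0.0857) did not pass. The 2 genes of this pair thus had point estimates of opposite sign at 10 µM, a difference that was not tested itself.

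Dbp, an output factor that binds D-boxes, had the largest changes of the members at 10 µM. Dbp, at chr7:45705088-45710203, was at 8.81, 9.25 and 9.71 CPM at 0 µM, at 6.77, 7.08 and 7.18 CPM at 2 µM and at 17.1 and 14.1 CPM at 10 µM. The 3 groups did not overlap, with 2 µM lowest and 10 µM highest. At 10 µM Dbp rose 1.68-fold over 0 µM (log2 fold change 0.75, standard error 0.117, adjusted p = 0.00215) and 2.23-fold over 2 µM (1.15, standard error 0.124, adjusted p = 0.000124). At 2 µM the difference of −0.41 from 0 µM (standard error 0.117, adjusted p = 0.0771) did not pass. The higher level against 2 µM was called under all 18 alternatives tried, at a log2 fold change of 0.96 to 1.29. Against 0 µM the call was lost without the second 0 µM library (0.72, adjusted p = 0.0151), without the first 10 µM library (0.56, adjusted p = 0.0301) and with only the 2 groups compared (0.75, adjusted p = 0.011). Sphk2, a sphingosine kinase gene that overlaps Dbp on the other strand, was at 22.2, 21.1 and 21 CPM on average at the 3 doses, with a log2 difference of −0.001 between 10 and 2 µM (adjusted p = 0.997).

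Since Dbp and Per3 were the members called, their promoters are shown in full, each with 250 bases before and 50 after a start of the gene in RefSeq (GRCm38.p6). Capitals mark any match to the letters searched on both strands. These were the E-box CACGTG, the E′-box CACGTT, the D-box TTATGTAA or TTACGTAA and the cAMP response element TGACGTCA. Of the ROR element only the core AGGTCA was searched, so that a match is not a full element. No letters were shared between matches in the windows shown. The Per3 window is chr4:151044616-151044915 on the minus strand and the Dbp window chr7:45704997-45705296 on the plus strand.
Per3: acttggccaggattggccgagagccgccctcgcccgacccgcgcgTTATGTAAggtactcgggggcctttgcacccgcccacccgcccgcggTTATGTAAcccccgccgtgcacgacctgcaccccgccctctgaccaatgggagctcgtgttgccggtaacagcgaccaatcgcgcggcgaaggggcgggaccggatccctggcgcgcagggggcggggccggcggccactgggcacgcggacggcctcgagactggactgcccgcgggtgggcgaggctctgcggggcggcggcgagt
Dbp: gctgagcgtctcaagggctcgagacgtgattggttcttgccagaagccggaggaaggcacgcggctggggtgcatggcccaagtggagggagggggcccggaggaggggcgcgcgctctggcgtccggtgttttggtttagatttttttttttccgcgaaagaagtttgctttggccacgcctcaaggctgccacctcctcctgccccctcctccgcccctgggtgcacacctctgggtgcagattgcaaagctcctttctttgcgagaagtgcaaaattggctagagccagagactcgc
The Per3 window held TTATGTAA at 2 positions (−205 and −158, counted from the start), and the Dbp window held none of the letters searched. Some genes have several windows (Per1 and Arntl 2, Clock 3), so that a gene was counted if any of its windows held the letters. A D-box of either form was in 1.23% of the 27025 genes with such windows (1.06% of the 32851 windows), and of the 9 members with a window (Per2 has none in this table) in that of Per3 alone. The E-box was in the windows of Per1 and Cry1, against 8.09% of genes (7.15% of windows), and the E′-box in those of Cry1, Cry2 and Nr1d1, against 5.44% (4.68%). The ROR element core was in those of Arntl, Clock, Nr1d2 and Per1 (18.13% of genes, 16.26% of windows). For Per1, Arntl and Clock it was in 1 of their windows. The cAMP response element was in none of the members' windows (2.03% and 1.79%). For comparison with the called genes, sites of 4 members that did not pass are shown. Up to 25 bases flank each site, which is in capitals. Shown are the E-boxes of Per1 (chr11:69098758-69098813, plus strand) and Cry1 (chr10:85185084-85185139, minus strand). The E′-box of Nr1d1 is read on its other strand (chr11:98775375-98775430, minus strand). The ROR element core of Arntl lies 32 bases after the start (chr7:113207517-113207560, plus strand).
Per1: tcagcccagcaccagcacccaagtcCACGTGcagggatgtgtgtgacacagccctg
Cry1: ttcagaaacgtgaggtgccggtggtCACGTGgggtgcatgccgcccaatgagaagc
Nr1d1: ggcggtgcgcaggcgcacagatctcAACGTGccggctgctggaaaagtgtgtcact
Arntl: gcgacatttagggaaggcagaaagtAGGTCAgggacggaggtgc
The members that hold an E-box or E′-box in these windows (Per1, Cry1, Cry2 and Nr1d1) had log2 fold changes of −0.53, −0.22, 0.15 and −0.53 at 10 µM against 0 µM, and none passed. Since RHPS4 binds G-quadruplexes, windows were also searched on both strands for 4 runs of at least 3 G with 1 to 7 bases between them. Those of Arntl, Cry2, Nr1d2 and Per3 held such a motif, against 20.44% of genes (18.60% of windows), and that of Dbp did not. A match is a description of the letters and does not show binding. Letters missing from a window, as in that of Dbp, may lie elsewhere in or near the gene, which was not searched.

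**Figure D2:**
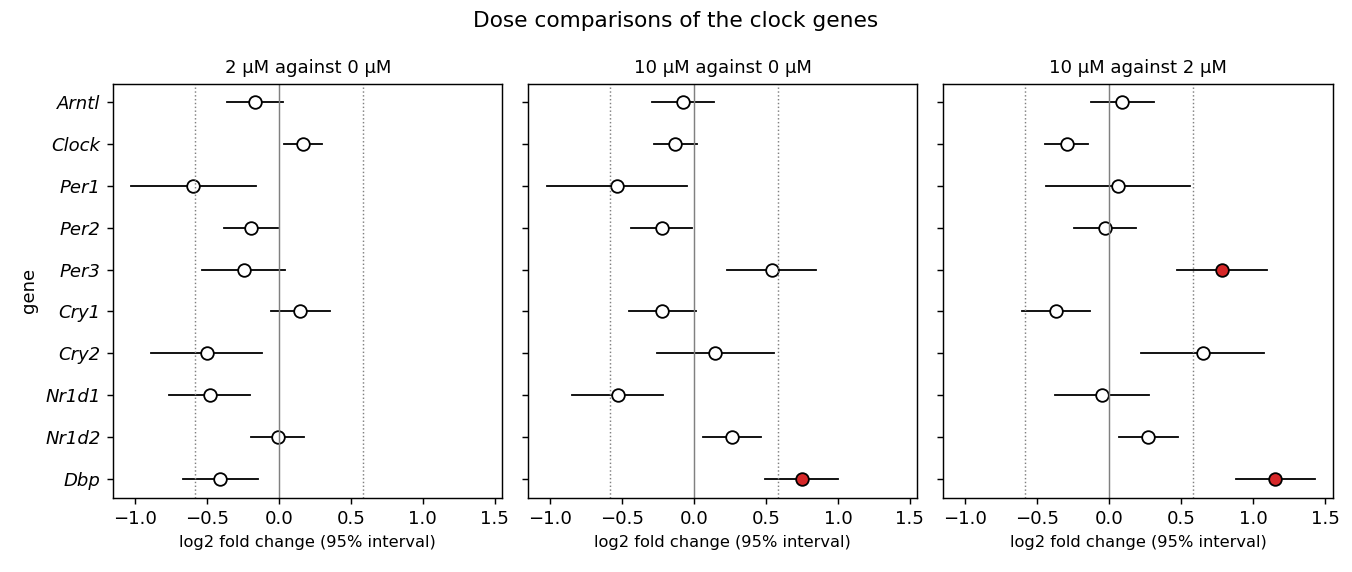
Log2 fold change (x axis) of each clock gene (y axis) in the 3 dose comparisons from edgeR, with its 95% interval; filled points passed the test and dotted lines mark 1.5-fold. Dbp passes in both comparisons of 10 µM and Per3 in that with 2 µM, while at 2 µM against 0 µM no member passes.

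Counted over the 10 members, none was called at 2 µM against 0 µM by edgeR's quasi-likelihood test, and none by DESeq2, with 6 at an unadjusted p under 0.05 (21.3% of all genes). Of all genes tested 0.119% were called higher and 0.378% lower in that comparison. At 10 µM against 0 µM 1 member was called higher (1.95% of all genes) and 0 lower (1.14% of all genes; 6 members, and 29.4% of all genes, had an unadjusted p under 0.05, and DESeq2 also called only Dbp). At 10 µM against 2 µM 2 were called higher (3.92% of all genes) and 0 lower (1.59% of all genes; again 6 with an unadjusted p under 0.05, beside 36.5% of all genes, and with DESeq2 the same 2 genes). The split of calls over all genes depended on the scaling: 63.1% of calls at 10 µM against 0 µM were higher, but 92.5% with total counts only and 49.6% with trends over GC content and length removed from each library, and against 2 µM these were 71.2%, 91.6% and 50.6%. The median log2 fold change of the members was −0.22, −0.1 and 0.076 in the 3 comparisons, beside −0.011, 0.016 and 0.026 over all genes tested. All comparisons share libraries, so that they are not independent of each other.

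Groups that do not overlap were common in these data. At 2 µM against 0 µM 2 members lay wholly higher (Cry1 and Clock; 12.7% of all genes) and 4 wholly lower (Per2, Arntl, Nr1d1 and Dbp; 12.9% of all genes). At 10 µM against 0 µM 3 lay higher (Per3, Nr1d2 and Dbp; 22.9% of all genes) and 4 lower (Per2, Cry1, Clock and Nr1d1; 20% of all genes). Between 10 and 2 µM 4 lay higher (Per3, Cry2, Nr1d2 and Dbp; 27% of all genes) and 2 lower (Cry1 and Clock; 24.9% of all genes).

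Tested over the 3 doses at once, Dbp (adjusted p = 3e-04) and Per3 (adjusted p = 0.00724) passed, as did 9.19% of all genes, and Arntl had the highest adjusted p of the members, at 0.355. The number depended on single libraries. Without the first 0 µM library 6 members passed (Per1, Per3, Cry2, Clock, Nr1d1 and Dbp), beside 17.5% of all genes. Without any one of the other 0 µM and 2 µM libraries Dbp alone passed. Over all genes 529 to 912 passed in these fits, against 1314 with all 8 libraries. In the pairwise comparisons without the first 0 µM library, Nr1d1 was called lower at 2 µM, where 0.793% of all genes were, and at 10 µM, where 2.37% were, and Per3, Cry2 and Dbp were called higher at 10 µM against 2 µM (3.77% of all genes). With total counts only, Per3 and Dbp were called higher at 10 µM against 0 µM (5.85% of all genes). DESeq2 called 4 members over the doses (Per3, Clock, Nr1d1 and Dbp; 16.1% of all genes it gave an adjusted p). With trends over GC content and exon length removed, a setting chosen after seeing the data, the same 4 members passed over the doses (14.9% of all genes).

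Counts were also compared within each library, where scaling cancels. For Dbp plus Nr1d1, which peak close together, over Arntl plus Clock the log2 ratio, with 0.5 added to each sum, was −3.48, −3.15 and −3.07 in the untreated libraries, −3.89, −3.82 and −3.74 in those at 2 µM, and −2.96 and −3.27 in those at 10 µM. At 2 µM every library was below the others, and of the 10 µM libraries one lay just above the untreated ones and one among them. The mean differed from that at 0 µM by −0.583 at 2 µM and 0.118 at 10 µM, against SDs of 0.216 (n = 3), 0.0793 (n = 3) and 0.214 (n = 2) at 0, 2 and 10 µM. The difference at 10 µM ran from −0.0336 without the first 10 µM library to 0.269 without the second 10 µM library. Since Clock carries most counts of the lower sum, Dbp and Arntl alone were also set against each other. Their log2 ratio was −1.26, −1.23 and −0.972 without RHPS4, −1.47, −1.38 and −1.31 at 2 µM, and −0.245 and −0.412 at 10 µM, so that the 10 µM libraries stood apart. Nr1d1 over Arntl had no such pattern. Untreated libraries were at −0.254, 0.126 and 0.366, the 2 µM libraries at −0.357, −0.204 and −0.0638, and the 10 µM libraries at −0.27 and −0.42. Both 10 µM libraries lay below the untreated ones there. Dbp and Nr1d1, which share their activators, therefore parted: the log2 ratio of Dbp to Nr1d1 was −1, −1.35 and −1.34 without RHPS4, −1.11, −1.17 and −1.24 at the lower dose, and 0.0259 and 0.00736 at the higher. This pair was chosen after its values were seen, and its ratio is given without a test. The labels give no series of collection times. A shift of phase, a change in rhythm strength and a change in the mean level of a gene therefore cannot be told apart.

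**Figure D3:**
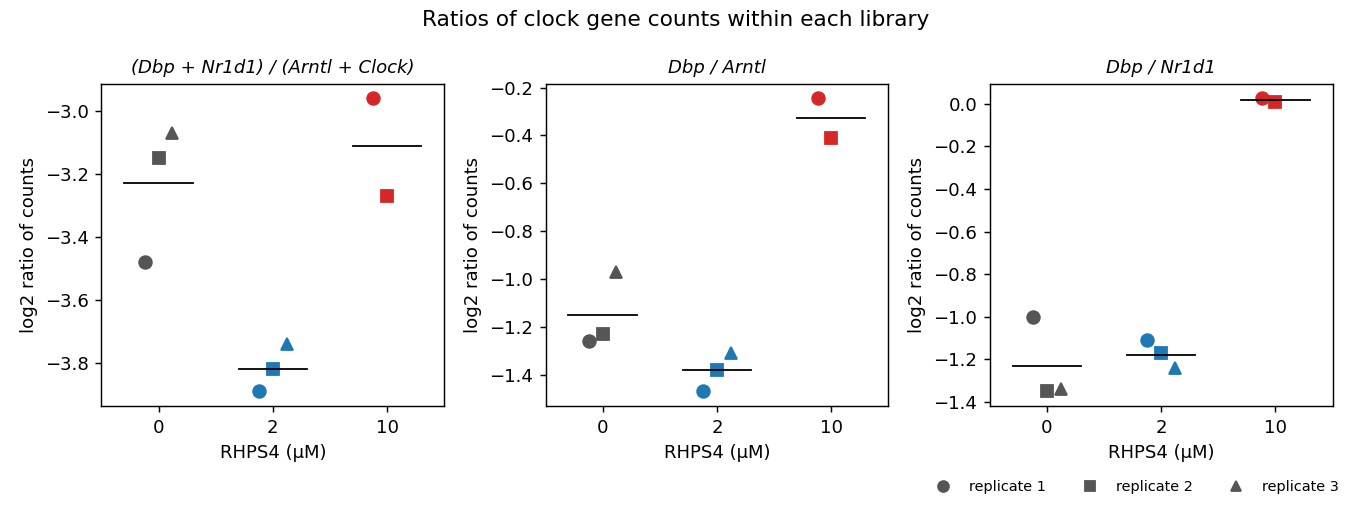
Log2 ratio of counts within each library (y axis) at 0, 2 and 10 µM RHPS4 (x axis), for Dbp plus Nr1d1 over Arntl plus Clock, Dbp over Arntl and Dbp over Nr1d1; symbols are libraries, shapes the replicate number, lines the means. The 10 µM libraries stand above the others for both ratios of Dbp to a single gene, but for the summed ratio one of them (−3.27) is among the 0 µM libraries and one (−2.96) just above them.

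Between libraries of one dose the members differed in their spread. The pooled SD of log2 CPM within doses was 0.106 in the median over the members and 0.148 over all genes tested, and 4 of the 10 members were above the latter. Those 4 were Per1 (0.355, above 84.6% of all genes tested), Cry2 (0.282), Per3 (0.209) and Nr1d1 (0.194), and the other targets of Clock and Arntl (Per2, Cry1, Nr1d2 and Dbp) lay below the median of all genes. The SD of the 4 was 4.2, 2.32, 3 and 2.1 times the counting error. Clock (0.0196), Per2 (0.0592), Arntl (0.0766), Cry1 (0.0871) and Dbp (0.103) varied by 0.632 to 0.904 times the counting error, so that no difference between libraries of one dose was detectable for them at this depth. Nr1d2 had an SD of 0.109, below the median of all genes tested, but this was 3.31 times its small counting error. Among the members only Per1 had a higher ratio.

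In 7 of the 8 libraries Per1, Cry2, Per3 and Nr1d1 lay on the same side of the dose mean. In the third 2 µM library Cry2 was 0.048 below and the others above. Deviations cancel within a dose, so that the 2 libraries at 10 µM mirror each other and the 7 are not independent. These 4 genes were also chosen by their spread between the same libraries. In the first 0 µM library Per1, Cry2, Per3 and Nr1d1 lay 0.49, 0.42, 0.32 and 0.30 below the dose mean on the log2 scale. In the first 2 µM library they lay 0.31, 0.12, 0.15 and 0.11 below theirs, and in the second 10 µM library 0.24, 0.22, 0.13 and 0.13 below. Nr1d2 went the other way, by 0.13, 0.032 and 0.11 in these 3 libraries. Dbp, which peaks close to Nr1d1, deviated by −0.07, −0.048 and −0.14 in the same 3 libraries, and Arntl by 0.036, 0.036 and −0.057, all within or near their counting error of 0.128 and 0.0861. These 3 libraries are also those in which long genes were low and short genes high. The trend over GC content and exon length came to −0.15 for Per1, −0.081 for Cry2, −0.1 for Per3 and −0.043 for Nr1d1 in the first 0 µM library, which is smaller than the deviation of each. Whether that trend, the depth or the cells set the deviations was not tested.

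**Figure D4:**
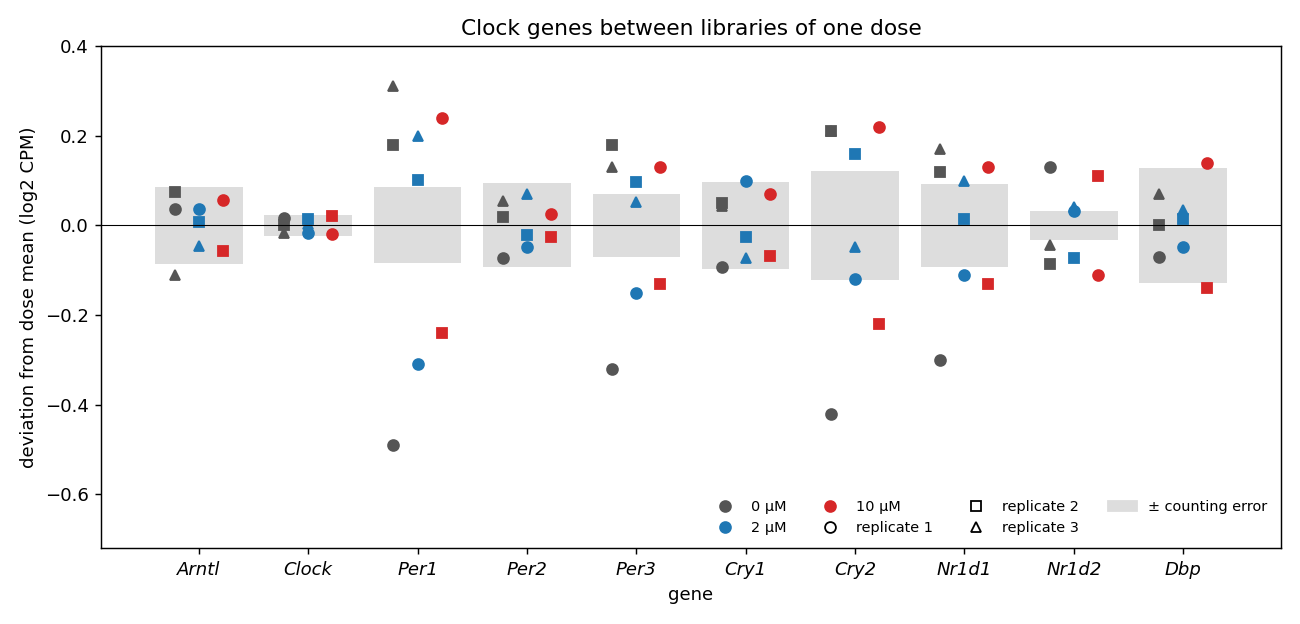
Deviation of each library from the mean of its dose (y axis, log2 CPM) for each clock gene (x axis); colours are doses, shapes replicate numbers and the grey band the counting error to either side of 0. Per1, Per3, Cry2 and Nr1d1 spread beyond the band, with the first 0 µM library lowest, at −0.49 for Per1. Nr1d2 also spreads beyond its narrow band, while Clock, Arntl, Per2, Cry1 and Dbp stay near theirs.

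Among other transcription factors of the clock 11 were listed and 10 tested. In the comparison of 2 with 0 µM edgeR called 1 lower, beside 0.378% of all genes. In that of 10 with 0 µM it called 1 lower, beside 1.14%. In that of 10 with 2 µM it called 2 higher, beside 3.92%. DESeq2 called 3 lower, then 1 lower, then 2 higher and 1 lower. Over all genes, in either direction, DESeq2 called 109 of 11732, 504 of 12646 and 814 of 12189. At an unadjusted p under 0.05 were 7, 6 and 5 of the 10 (21.3%, 29.4% and 36.5% of all genes). The median log2 difference was −0.41, −0.052 and 0.33 beside −0.011, 0.016 and 0.026 over all genes. Bhlhe40 (DEC1), a repressor that competes for E-boxes, had 40.5, 49.7 and 53.6 CPM at 0 µM, 28.2, 27.3 and 25.2 CPM at 2 µM and 21 and 15.2 CPM at 10 µM. Its levels at the 3 doses did not overlap, and on the log2 scale it fell by 0.85 (standard error 0.128, adjusted p = 0.00629) at the lower dose and fell by 1.41 (0.15, adjusted p = 0.000158) at the higher. The change at 10 µM was called under all 18 alternatives, whereas that at 2 µM was lost without the second or the third 0 µM library or any one 2 µM library (−0.76 to −0.88, adjusted p = 0.0225 to 0.05), and with total counts only (−0.77, adjusted p = 0.0102). Nfil3, which represses through D-boxes, was at 23, 29.4 and 33 CPM at 0 µM, at 22.7, 23.8 and 24.3 CPM at 2 µM and at 43.1 and 36.2 CPM at 10 µM, and rose by 0.75 between 2 and 10 µM (adjusted p = 0.00296). Rora, an activator through ROR elements, was at 11.9, 15.6 and 15.3 CPM at 0 µM, at 6.86, 6.92 and 9.97 CPM at 2 µM and at 12.7 and 15.8 CPM at 10 µM, and its 2 µM libraries lay below all others (10 µM against 2 µM 0.82, adjusted p = 0.00855; 2 µM against 0 µM −0.85, adjusted p = 0.0209, which did not pass). The call of Nfil3 was lost without any one 2 or 10 µM library (adjusted p up to 0.0402), and that of Rora without any library but the first 0 µM and the third 2 µM ones (adjusted p up to 0.0942). Tef, a relative of Dbp that binds the same D-boxes, was at 84.5 and 92.6 CPM at 10 µM and 67.4 to 74 CPM in the other libraries, and differed from 2 µM by 0.37 (adjusted p = 0.00627), under the fold threshold. Bhlhe41 (DEC2), at 37.8 to 39.7 CPM at 0 µM and 27 to 32.8 CPM in all exposed libraries, did not pass (adjusted p = 0.0507 and 0.0418). Also wholly below the untreated libraries at 2 µM, and likewise not passing with edgeR, were Rorb (−0.63, adjusted p = 0.0261), Arntl2 (−0.57, adjusted p = 0.0446) and Hlf (−0.45, adjusted p = 0.0557), which were named after their values were seen.

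Among the 13 kinases and modifiers of clock proteins edgeR and DESeq2 called 0 in every comparison. At an unadjusted p under 0.05 were 0, 2 and 3 of them (21.3%, 29.4% and 36.5% of all genes). Csnk1a1, a casein kinase that marks PER proteins for decay, was at 382 to 408 CPM in all 8 libraries, with a log2 difference of 0.01 at 10 µM against 0 µM (adjusted p = 0.94). Huwe1, a ubiquitin ligase, was at 798 to 1050 CPM, and differed by −0.10 at 2 µM (adjusted p = 0.605) and −0.20 at 10 µM (adjusted p = 0.284).

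All 10 clock-controlled outputs (11 symbols, Noct being listed under its older one too) were tested. By edgeR 1 was called lower at 2 µM (0.378% of all genes), 1 higher at 10 µM (1.95%) and 1 higher at 10 µM against 2 µM (3.92%). DESeq2 called 2 lower at 2 µM and the same numbers otherwise. Tsc22d3 (GILZ), a glucocorticoid-induced regulator, was at 23.6, 24.2 and 27 CPM at 0 µM, at 21.6, 20.9 and 21.7 CPM at 2 µM and at 37.9 and 42.1 CPM at 10 µM, an order of doses like that of Dbp. It rose by 0.67 over 0 µM (standard error 0.0928, adjusted p = 0.000911) and 0.90 over 2 µM (0.0947, adjusted p = 0.000105), the former call being lost without the second 10 µM library (0.57, adjusted p = 0.0219) and with GC and length trends removed (0.58, under the fold threshold). Lpin1, a phosphatidate phosphatase, was at 51, 52.9 and 54.6 CPM at 0 µM, at 36.3, 31.3 and 36.7 CPM at 2 µM and at 42.7 and 36.3 CPM at 10 µM, and fell by 0.60 at 2 µM (adjusted p = 0.00582), a call that was lost without the second or the third 0 µM library or any one 2 µM library (adjusted p up to 0.05), and fell under the fold threshold with total counts only or GC and length trends removed (−0.52 and −0.53). Cdkn1a, a cell cycle inhibitor named after its values were seen, was at 2.49, 4.15 and 5.27 CPM at 0 µM, at 0.792, 1.3 and 2.37 CPM at 2 µM and at 3.53 and 2.94 CPM at 10 µM. Its log2 difference of −1.41 at 2 µM was the largest of the list but did not pass with edgeR (adjusted p = 0.0398). Nampt, the NAD salvage enzyme whose gene carries E-boxes, was flat at 131 to 161 CPM (log2 difference −0.003 and −0.02, adjusted p = 0.989 and 0.895). Tspan4 was at 81.8 to 103 CPM at 0 and 2 µM and at 63.9 and 67.1 CPM at 10 µM, a log2 difference of −0.52 from 2 µM (adjusted p = 0.00328) that is under the fold threshold. The median of this list was −0.064, −0.12 and 0.14 in the 3 comparisons.

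The last list holds genes that serum, cAMP or glucocorticoid pulses induce when they reset a clock, and some mediators of such pulses (Creb1, Crtc1 and Nr3c1). Of 14 tested edgeR called 3 lower at 2 µM (0.378% of all genes) and 4 at 10 µM (1.14%), and DESeq2 3 and 5, with 0 higher by either tool. Between 10 and 2 µM edgeR called 0 and DESeq2 called 1 lower, with 5 of the 14 at an unadjusted p under 0.05 (36.5% of all genes). The median log2 difference was −0.25, −0.48 and −0.11. Fos and Fosb, immediate early AP-1 factors, were low at both doses. Fos had 8.08, 9.05 and 8.28 CPM at 0 µM, 2.11, 2.12 and 3.62 CPM at 2 µM and 4.39 and 3.02 CPM at 10 µM, and fell by 1.65 (adjusted p = 0.00218) and 1.18 (adjusted p = 0.00489) on the log2 scale. Fosb had 7.15, 10.3 and 8.99 CPM at 0 µM, 2.38, 3.42 and 3.86 CPM at 2 µM and 4.57 and 3.16 CPM at 10 µM, and fell by 1.45 (adjusted p = 0.00363) and 1.21 (adjusted p = 0.00482). Nr4a1, an immediate early nuclear receptor, was at 15.5, 18 and 17.8 CPM at 0 µM, at 8.01, 8.14 and 9.37 CPM at 2 µM and at 10.5 and 9.12 CPM at 10 µM, and fell by 1.01 (adjusted p = 0.00141) and 0.81 (adjusted p = 0.00176). Dusp1, a phosphatase of MAP kinases, was at 21.9 to 23 CPM at 0 µM, 17.1 to 17.7 CPM at 2 µM and 13.8 and 12.7 CPM at 10 µM, and fell by 0.77 at 10 µM (adjusted p = 0.000405), but with total counts only this was under the fold threshold (−0.56). Other immediate early genes did not pass, such as Egr1 (−0.18 and −0.26, adjusted p = 0.603 and 0.411) and Junb (−0.04 and −0.23, adjusted p = 0.855 and 0.169). Some genes of the list that edgeR did not call still lay wholly below the untreated libraries. Klf10 at 10 µM (−0.50, adjusted p = 0.00547) was under the fold threshold. Sik1 at 10 µM (−0.465, adjusted p = 0.0139) and Crem at 2 µM (−0.48, adjusted p = 0.0227) missed the threshold of p. These were named after their values were seen. The calls of Fos, Fosb and Nr4a1 at both doses were lost without the second or the third 0 µM library and without one or more of the exposed libraries (adjusted p up to 0.0503). Sgk1, a glucocorticoid and serum induced kinase, and Nr3c1, the glucocorticoid receptor, did not pass, at 614 to 805 CPM and 163 to 201 CPM over the 8 libraries. Per1, itself an immediate early gene, did not pass in the same comparisons, as given above.

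**Figure D5:**
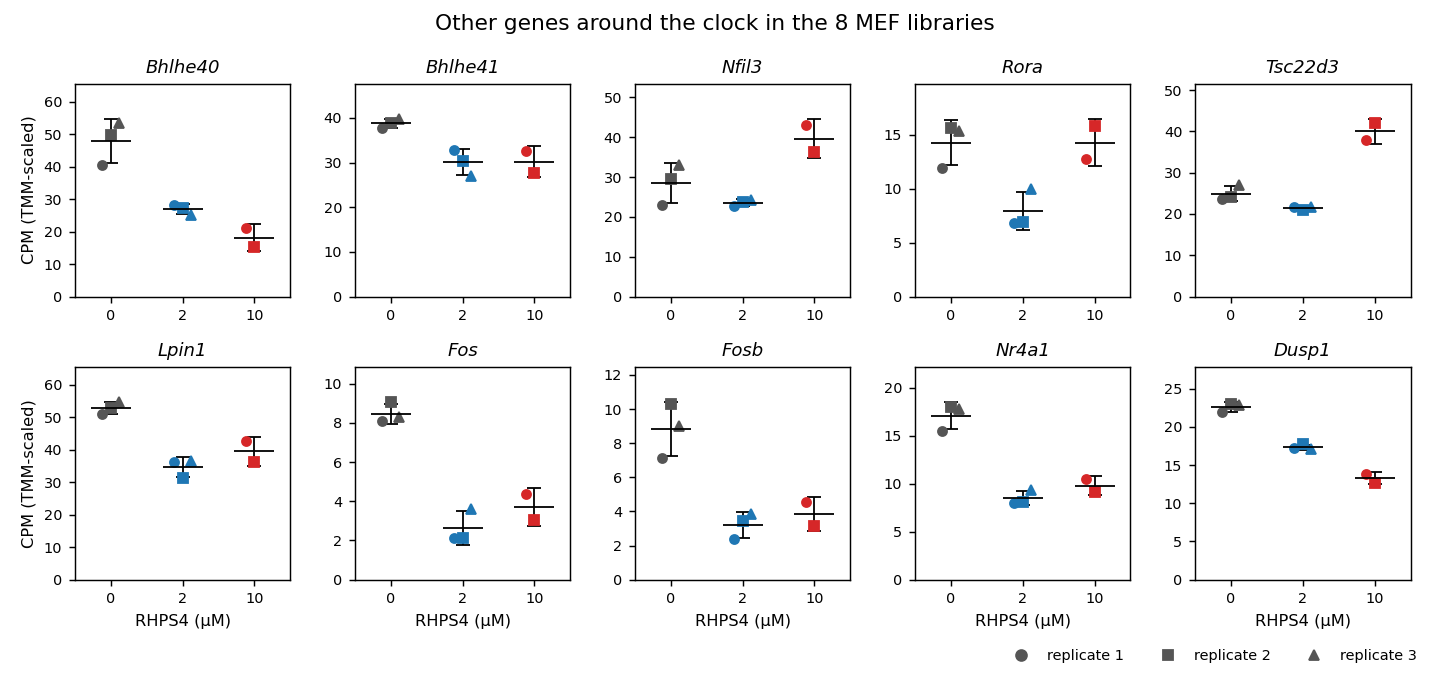
Level (CPM, y axis from 0) of 10 other genes of the clock, its outputs and its resetting at 0, 2 and 10 µM RHPS4 (x axis); symbols are libraries, shapes replicate numbers, with the mean as a line and the SD as bars. Bhlhe40 goes down from 40.5 to 53.6 CPM at 0 µM to 15.2 and 21 CPM at 10 µM, Fos, Fosb and Nr4a1 are low at both doses, and Tsc22d3 is high at 10 µM.

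The genes outside the lists whose levels ran most like those of Dbp over the 8 libraries, by the smallest root mean square difference of centred log2 CPM, were Slc38a7 (0.0711), Helz2 (0.0859), Phyh (0.0892), Slc25a27 (0.0995) and Itpr2 (0.101). Slc38a7, an amino acid transporter, was at 15.7, 12.8 and 27 CPM on average at 0, 2 and 10 µM, and Itpr2, a calcium channel of the endoplasmic reticulum, at 58.3, 43.3 and 88.5 CPM. All of these 5 genes shared the dip at 2 µM and the high level at 10 µM, which follows from how they were chosen. Those most like Per3 were Tcea3 (0.0701), Agbl5 (0.0849), Dync2h1 (0.0895), Asah2 (0.0905) and Tlr3 (0.0906), of which Dync2h1, a motor of ciliary transport, was at 51.2, 41.6 and 70.5 CPM.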

How the data were processed

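RNA-Seq of MEFs at 0, 2 and 10 µM RHPS4 was analysed from the raw counts per gene that the authors deposited, 1 table per library, which are whole numbers without normalization. Per the labels and the study's methods, reads were trimmed with Trim Galore and Cutadapt after FastQC, aligned to mm10 with STAR (2.5.2a in the submitters' processing notes), and fragments that mapped uniquely to genes were counted with featureCounts. The annotation, the strand setting and the treatment of overlapping genes are not given in the sources used here.

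Tests were run with edgeR 4.0.16 under R 4.3.3 (TMM factors, filterByExpr, glmQLFit, glmQLFTest), with all 8 libraries and the dose as the only factor, so that the 2 libraries at 10 µM share the spread of the others. A call had a Benjamini-Hochberg adjusted p under 0.01 over all genes tested and a fold change over 1.5, the thresholds of the study's methods; the test over the 3 doses had no fold limit. The standard error was the log2 fold change divided by the square root of F. Log2 CPM used a prior count of 2. The counting error was the root mean of the inverse counts on the log2 scale. Positions, exon lengths (merged exons) and GC content came from GENCODE vM21 (GRCm38) and covered 95.4% of genes by symbol; promoters came from RefSeq, and 9 of the 10 members matched. Other steps used Python 3.11.15.

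The members and gene lists were chosen with earlier results of these data known. Named were the members, list genes called in any comparison, the 2 most abundant genes per list, defining markers of other cell types, and the 5 genes most like each of the 2 members with the smallest p over the doses. Alternatives were RLE, TMM over nuclear genes, total counts only, no filter, DESeq2 1.42.0, a minimum of 10 counts in all libraries, a block for the replicate number, a fit of only the 2 groups compared, no minimum fold change, and each library left out; for ratios a pseudocount of 5 and other gene sets, for spreads a prior count of 0.5. Removing smooth trends over GC content and exon length, also with the block, was chosen after seeing the data. The edgeR and DESeq2 fits were tested on simulated counts, for 10 µM against 0 µM only, and the other steps were not.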

Additional observations from a re-analysis of the deposited data

How the results depend on the processing

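The call of Dbp at 10 µM against 2 µM held under all 18 alternatives. With each library left out, the members called ranged from 0 to 1 at 2 µM, 0 to 2 at 10 µM, 1 to 3 between 10 and 2 µM and 1 to 6 over the doses; where 1 library is left at 10 µM, it is assumed to vary like the other groups. At 10 µM against 0 µM 2 members were called higher with total counts only (Per3 and Dbp; 5.85% of all genes). With only the 2 groups compared 0 members were called (297 of 14383 genes). Over the doses 4 were called with DESeq2 (16.1% of all genes) and 4 with GC and length trends removed (14.9%), against 2 (9.19%). Both times the 4 were Per3, Clock, Nr1d1 and Dbp. Total counts only moved the median log2 fold change of all genes to 0.23 at 10 µM and 0.16 between 10 and 2 µM, and changes under it are relative to that shift.

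Between 0 and 2 µM same-numbered libraries correlated by 0.0845 to 0.199 in their deviations from the dose means. At these doses 6 of 6 libraries correlated best with their own number. Deviations cancel within a dose, so that the 6 are not independent of each other, nor are the correlations at 10 µM. Same-numbered libraries at 10 µM correlated with those of the other doses by −0.145 to −0.0212. The replicate numbers thus went with a weak likeness between 0 and 2 µM only. With the replicate block 1 member (Dbp) was called over the doses, against 2, and the other counts of members were the same. Among other clock genes the block ended the calls of Bhlhe40 (adjusted p = 0.02) and Fosb (0.0118) at 2 µM and of Fos (0.0223) and Fosb (0.0232) at 10 µM, and with GC and length trends removed as well that of Bhlhe40 at 2 µM (0.012) and of Lpin1 (−0.533, under the fold threshold). Over all genes 857 passed over the doses with the block, against 1314.

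The difference of the summed ratio of Dbp plus Nr1d1 to Arntl plus Clock was −0.583, 0.118 and 0.701 in the 3 comparisons. It was −0.31, 0.295 and 0.605 for 6 over 3 genes (Dbp, Nr1d1, Nr1d2, Per1, Per2 and Per3 over Arntl, Clock and Cry1) and −0.232, 0.825 and 1.06 for Dbp over Arntl. Without single libraries it was −0.705 to −0.5, −0.0336 to 0.269 and 0.549 to 0.852.

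Among the log2 fold changes under an alternative, 699 kept direction and call, 66 lost the call, 4 gained it and 23 changed sign, none of the last being of a called gene. Nr1d2 at 2 µM (−0.008) became 0.0031 with nuclear genes only, 0.0746 with total counts, 0.00148 with 2 groups, 0.0233 with GC and length trends removed and 0.0245 with these and the replicate block, and ran from −0.0439 to 0.0646 without single libraries. With total counts Arntl and Clock at 10 µM became 0.139 and 0.0864, and Per2 and Nr1d1 between 10 and 2 µM 0.104 and 0.0866; with the replicate block the latter pair became 0.0034 and 0.0306. Arntl between 10 and 2 µM became −0.00839 and −0.0586 with GC and length trends removed, without and with the replicate block. Without single libraries Cry2 at 10 µM ran from −0.126 to 0.314, and between 10 and 2 µM Per1 ran from −0.25 to 0.24, Arntl from −0.00897 to 0.108 and Nr1d1 from −0.23 to 0.0361. The causes were not tested.

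Counts of calls over all genes differed by over 1.5 times with no minimum fold change (107, 747 and 1539 against 71, 442 and 788), with DESeq2 at 2 µM (109), with total counts only at 10 µM (904), and without single libraries, where they ran from 6 to 144, 235 to 633 and 444 to 884. Those at 10 µM against 0 and 2 µM were lowest without the second 10 µM library, and those at 2 µM without the second 2 µM library. Depth limits Dbp and Cry2 most, with 77 and 82 counts in their lowest libraries.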
